A study of Mus musculus with 10 samples.

Results

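Chemokine ligands were read in RNA-seq libraries from 10 cutaneous squamous tumors of mice, 5 labelled *Ldha*-null (genotype LDHA-/-) and 5 labelled wild type. The members were the protein-coding genes named Ccl, Cxcl, Cx3cl or Xcl with a number, plus *Ppbp* and *Pf4*, and they came to 39 of 35275 genes listed in every tumor. *Cxcl11* was left out because the files give it as a polymorphic pseudogene. The series compares tumors with and without lactate dehydrogenase A, the main enzyme that turns pyruvate into lactate. In the study, both genotypes carried tumors that arose from hair follicle stem cells, either through Cre recombination driven by *K15CrePR* (induced with mifepristone) or *Lgr5CreER* (induced with tamoxifen), with conditional alleles that include p53 fl/fl and with or without Ldha fl/fl, or through the carcinogens DMBA and TPA. Tumors of each model were started in young adult mice, in the hair follicle's resting phase for the Cre models, and harvested some weeks to months later, and animals of both sexes were used. Which model, age and sex belongs to each sequenced tumor was not found in the labels or the study's methods. The Cre drivers act in only some skin cells, and the study describes some tumors of deletion mice as mosaic for the enzyme's activity. The labels name squamous carcinoma cells, while the RNA was taken from whole fresh tumors with no sorting, so leukocytes, stroma and adjoining tissue can contribute to every value. In such bulk samples, fewer cells of a type and less RNA per cell cannot be told apart.

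Chemokines are small secreted proteins that guide the movement of cells by binding receptors on their surface. The names follow the spacing of the first cysteines in the protein, which sets the CC, CXC, CX3C and XC families apart, and the receptors are named for the family they bind. In skin and skin tumors, *Ccl2* and its relatives draw monocytes through *Ccr2*, *Cxcl1*, *Cxcl2*, *Cxcl3* and *Cxcl5* draw neutrophils through *Cxcr2*, and *Cxcl9* and *Cxcl10* are induced by interferon and draw T cells through *Cxcr3*. Others are made in resting tissue, such as *Ccl27a* and *Cxcl14* by keratinocytes and *Cxcl12* by stromal cells.

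Levels between genes are given in FPKM, which are fragments scaled to gene length and to library size, as deposited by the authors. Total counts were 12969508 to 17694201 per tumor. *Ldha* itself did not separate the labels, at 1882, 246, 1288, 542 and 324 FPKM across *Ldha*-null tumors 1 to 5 and, with wild type, 389.6, 340.1, 345, 589 and 2824 FPKM across tumors 1 to 5 (log2 fold change 0.33, edgeR adjusted p = 0.999), so each group is named here by its label. Messenger RNA can remain after a conditional deletion, and the deposited values are per gene, so they do not show which exons were kept. Tumors stood apart in tissue content within both genotypes. The 8 keratinocyte markers summed to 36522 FPKM in *Ldha*-null tumor 3 and, for wild-type tumor 5, to 36393 FPKM, against 243 FPKM in wild-type tumor 1, and the 7 skeletal muscle markers summed to 85460 FPKM in *Ldha*-null tumor 1, against 34.5 to 204 FPKM in the other 9 tumors. The 9 macrophage markers were lowest in these same 3 tumors, at 116 FPKM in *Ldha*-null tumor 1, 1024 FPKM in *Ldha*-null tumor 3 and 569.6 FPKM for wild-type tumor 5, against 3038 to 6317 FPKM in the other 7.

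Of the 39 chemokine ligands, 31 reached a mean of 1 FPKM over the 10 tumors and 23 a mean of 10 FPKM. The 8 below were *Ccl1*, *Ccl19*, *Cxcl17*, *Ccl28*, *Cxcl15* and *Ccl27b*, of which the highest single value was 2.06 FPKM for *Ccl1* in wild-type tumor 3, and *Ccl26* and *Ccl21b*, which had 0 counts in every tumor. *Ccl27b* and *Ccl21b* are near-identical copies of *Ccl27a* and *Ccl21a* on chromosome 4, so the split of reads within these pairs is uncertain. Summed over all members, the level was 1398 ± 398 FPKM in *Ldha*-null tumors (mean ± SEM, n = 5) and 1886 ± 486 FPKM in wild-type tumors (n = 5). It ranged from 194 FPKM in *Ldha*-null tumor 1 to 3313 FPKM in wild-type tumor 2. The other tumors set apart by tissue content, *Ldha*-null tumor 3 and wild-type tumor 5, came next from the bottom, at 789.9 and 399 FPKM, and the remaining 7 tumors held at least 1352 FPKM. Chemokine ligands took 0.0208% to 0.273% of all counts in a tumor.

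**Figure D1:**
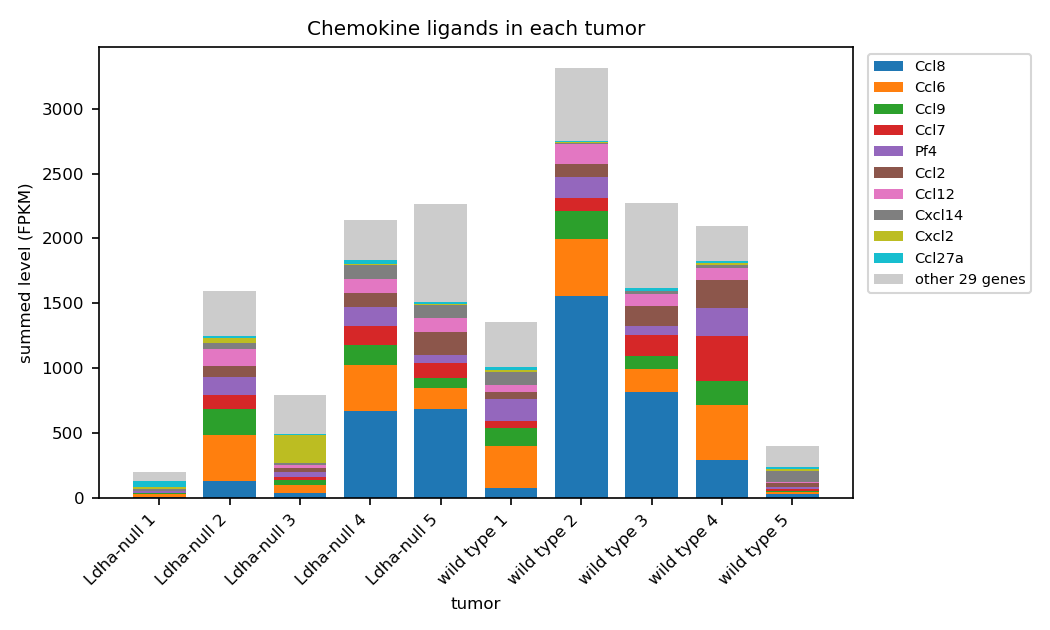
Summed FPKM of the 39 chemokine ligands (vertical axis) in each of the 10 tumors (horizontal axis), with 10 genes in color and the other 29 in grey. *Ccl8* (lowest segment) makes up the largest part of the bar in 4 tumors, while the bars of wild-type tumor 5 and *Ldha*-null tumors 1 and 3 are the lowest, at 399, 194 and 789.9 FPKM.

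A different chemokine led in different tumors, and in none did the 3 highest make up less than 39.8% or more than 66.7% of the summed level. *Ccl8*, also known as MCP-2, led in wild-type tumors 2 and 3 and *Ldha*-null tumors 4 and 5, with 30.3% to 47.1% of the sum. It is grouped here with the monocyte attractants, and its receptors were not examined. *Ccl6*, a CC chemokine of myeloid cells that binds *Ccr1*, led in *Ldha*-null tumor 2 and wild-type tumors 1 and 4, with 20.4% to 23.7%, and was among the 3 highest in 9 of 10 tumors. The 3 tumors set apart by tissue content each had another leader. *Ldha*-null tumor 1, with its muscle transcripts, was led by *Ccl27a* at 42.7 FPKM (22.0% of its sum). *Ldha*-null tumor 3 was led by *Cxcl2* at 213 FPKM (27.0%), followed by *Ccl3* at 66.9 FPKM. Wild-type tumor 5 was led by *Cxcl14* at 91.9 FPKM (23.0%), followed by *Cx3cl1* at 37.1 FPKM. In all, 11 members were among the 3 highest of at least 1 tumor. The leader depends on the gene length used, which differs from the length listed in the files by over 1% for 15 of 37 members with counts. With the listed length, 9 of 10 tumors kept their leader and wild-type tumor 4 was led by *Ccl7*, while 22 of the 30 places among the 3 highest were shared. By CPM with no length, 7 of 10 tumors kept their leader and 19 of 30 places were shared.

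**Figure D2:**
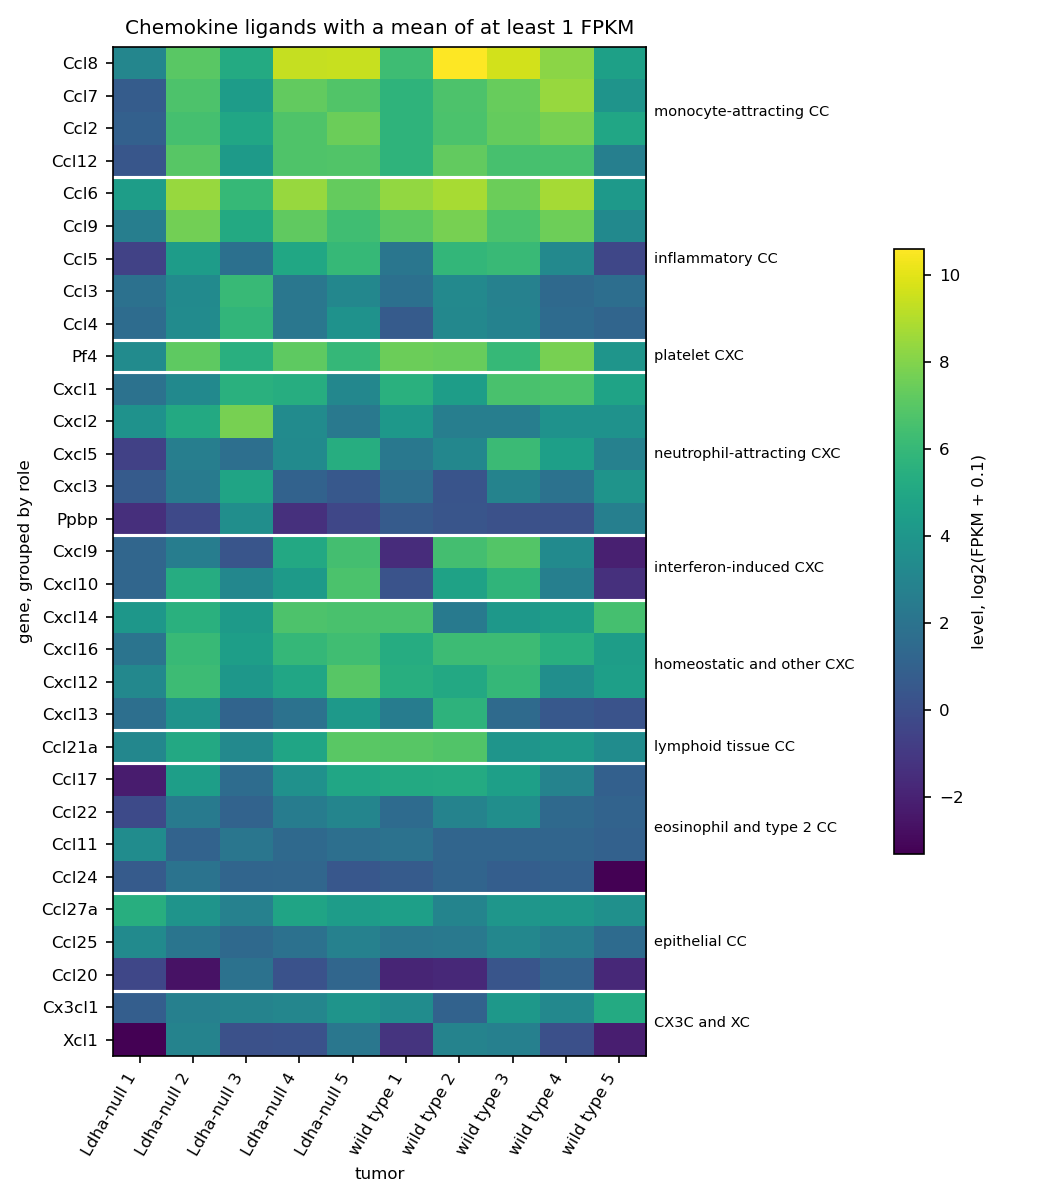
Level of the 31 chemokine ligands with a mean of at least 1 FPKM, as log2(FPKM + 0.1), by tumor (columns) and gene grouped by role (rows). *Ccl8* and *Ccl6* are brightest in most tumors with little keratinocyte RNA, while *Cxcl2* is brightest in *Ldha*-null tumor 3 and *Ccl27a* in *Ldha*-null tumor 1.

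The members grouped as monocyte attractants, *Ccl8*, *Ccl7*, *Ccl2* and *Ccl12*, lie next to each other with *Ccl11* on chromosome 11 (mm10, chr11:82035571-82116799). *Ccl8* (ENSMUSG00000009185) stood at 8.21, 131, 36.1, 672 and 687 FPKM across *Ldha*-null tumors 1 to 5 and, with wild type, at 77.2, 1559.7, 813, 287 and 23.9 FPKM across tumors 1 to 5. Its levels spanned 190-fold, with low and high tumors in both genotypes. *Ccl7*, which binds *Ccr2*, ranged from 1.58 FPKM in *Ldha*-null tumor 1 to 347 FPKM in wild-type tumor 4. *Ccl2*, the best known monocyte attractant, measured 1.87, 89.4, 29.98, 109.9 and 175 FPKM in *Ldha*-null tumors and 52.6, 101, 159, 218 and 29.7 FPKM in wild-type tumors. *Ccl12*, a mouse relative of *Ccl2*, ranged from 1.24 FPKM in *Ldha*-null tumor 1 to 155 FPKM in wild-type tumor 2. All 4 were lowest in *Ldha*-null tumor 1 and lower in *Ldha*-null tumor 3 and wild-type tumor 5 than in the other 7 tumors, as the macrophage markers were. This likeness sets these 3 tumors against the other 7 and does not describe the order within the 7. The part of macrophages in these levels was not tested. *Ccl2* overlaps *Gm17268* on the opposite strand, and no source used here says whether the libraries kept strand, so reads of this pair cannot be told apart. The same holds for *Ccl6* with *E230016K23Rik*, *Cxcl16* with *Zmynd15*, *Cxcl10* with *Art3*, *Ccl27a* with *Il11ra1* and *Ccl21a* with *4930578G10Rik*.

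*Ccl6* and *Ccl9*, neighbors on chromosome 11 that bind *Ccr1*, and *Pf4*, the platelet factor that macrophages also make, were all abundant in the 7 tumors rich in macrophage markers. *Ccl6* (chr11:83587882-83593087) stood at 21.8, 351, 64.5, 354 and 158 FPKM across *Ldha*-null tumors 1 to 5 and, with wild type, at 321, 437, 178, 427 and 17.5 FPKM across tumors 1 to 5. *Ccl9* ranged from 6.18 FPKM in *Ldha*-null tumor 1 to 212 FPKM in wild-type tumor 2. *Pf4* ranged from 10.5 FPKM in *Ldha*-null tumor 1 to 215 FPKM in wild-type tumor 4. Each of the 3 was lower in the 3 tumors set apart than in any of the other 7. The platelet marker *Itga2b* was present in every tumor, at 3.75 to 26.4 FPKM, whereas *Gp9* and *Gp5* were at 0 in at least 1 tumor.

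*Ccl5* did not share its highest tumor with *Ccl3* and *Ccl4*. *Ccl5*, a product of T cells and NK cells, stood at 0.575, 21.0, 3.43, 31.6 and 63.7 FPKM in *Ldha*-null tumors and, with wild type, at 4.36, 59.0, 69.0, 9.14 and 0.667 FPKM. *Ccl3*, made by activated macrophages and neutrophils, measured 3.60, 10.1, 66.9, 4.48 and 8.78 FPKM in *Ldha*-null tumors and 3.42, 9.25, 6.95, 2.66 and 3.22 FPKM in wild-type tumors. *Ccl4*, its neighbor, measured 2.96, 10.6, 57.0, 4.47 and 13.5 FPKM in *Ldha*-null tumors and 1.498, 8.87, 7.24, 2.83 and 2.22 FPKM in wild-type tumors. For both, *Ldha*-null tumor 3 was the highest, at 6.65 times the next tumor for *Ccl3* and 4.22 times for *Ccl4*, and the other 9 tumors overlapped between genotypes.

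The neutrophil attractants form a cluster with *Pf4* and *Ppbp* on chromosome 5 (chr5:90759299-90905909). Their promoters are shown because *Cxcl1*, *Cxcl2* and *Cxcl3* share a motif there, while *Cxcl1* was highest in another tumor than *Cxcl2* and *Cxcl3*, and *Cxcl10* is shown beside them because it carries the same motif together with another. Each sequence is the 250 bases before the start site, 5′ to 3′ on the strand of the gene, from RefSeq promoters on GRCm38.p6 (mm10), and 29 of the 39 members had an entry. Capitals mark matches, on either strand, to a form of the site bound by NF-kB (GGGA, any 2 bases and TTCC) or to a form of the interferon-stimulated response element (GAAA, any 2 bases and GAAA).
Cxcl1, chr5:90890995-90891244, plus strand: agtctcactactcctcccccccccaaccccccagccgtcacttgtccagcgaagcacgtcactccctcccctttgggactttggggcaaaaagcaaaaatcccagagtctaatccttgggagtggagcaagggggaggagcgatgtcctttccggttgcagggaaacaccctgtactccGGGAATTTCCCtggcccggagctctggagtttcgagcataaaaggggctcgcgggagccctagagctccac
Cxcl2, chr5:90903649-90903898, plus strand: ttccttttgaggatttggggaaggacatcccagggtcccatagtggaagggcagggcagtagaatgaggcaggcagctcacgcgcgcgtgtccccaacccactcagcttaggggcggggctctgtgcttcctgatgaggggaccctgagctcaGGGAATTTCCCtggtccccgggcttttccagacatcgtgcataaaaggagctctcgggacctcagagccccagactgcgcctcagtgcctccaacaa
Cxcl3, chr5:90785851-90786100, plus strand: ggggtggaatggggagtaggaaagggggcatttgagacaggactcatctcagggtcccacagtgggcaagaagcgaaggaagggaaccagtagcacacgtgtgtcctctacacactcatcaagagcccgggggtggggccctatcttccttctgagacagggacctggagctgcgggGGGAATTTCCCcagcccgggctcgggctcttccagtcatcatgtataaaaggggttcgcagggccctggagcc
Cxcl10, chr5:92348890-92349139, minus strand: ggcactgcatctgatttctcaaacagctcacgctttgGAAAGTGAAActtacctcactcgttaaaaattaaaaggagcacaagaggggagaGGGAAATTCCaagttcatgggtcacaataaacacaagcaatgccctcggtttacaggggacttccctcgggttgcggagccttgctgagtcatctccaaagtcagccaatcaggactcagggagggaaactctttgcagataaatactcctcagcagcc

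In *Cxcl1*, *Cxcl2* and *Cxcl3* the capitals cover 2 overlapping matches to the NF-kB form, GGGAATTTCC and, 1 base on, GGAATTTCCC read as the other strand, and the first of them begins at -71, -97 and -73 relative to the start site, in the same order. In *Cxcl10* the first run of capitals, GAAAGTGAAA, matches the interferon form and the next, GGGAAATTCC, the NF-kB form. Among members with an entry, 5 of 29 (17.2%) held the NF-kB form, *Ccl1* being the other, against 1.36% of all 27025 genes with a promoter, and 3 (10.3%; *Cxcl10*, *Cxcl14* and *Ccl19*) held the interferon form, against 3.46% of all. TATAAA was found in 11 members (37.9%), *Ccl8*, *Ccl9*, *Ccl12* and *Cxcl9* among them, against 14.3% of all, and TGANTCA, a form of the AP-1 site, in 5 (17.2%), against 7.82%. A match describes these letters only and was not taken as a bound site.

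*Cxcl2* (chr5:90903899-90905909) stood at 13.6, 35.6, 213, 10.3 and 4.89 FPKM across *Ldha*-null tumors 1 to 5 and, with wild type, at 16.99, 6.07, 6.14, 13.7 and 13.9 FPKM across tumors 1 to 5. *Ldha*-null tumor 3 was thus 5.99 times the next tumor, *Ldha*-null tumor 2. *Cxcl1*, whose promoter holds the same run of capitals, had another order, at 3.74, 9.66, 45.4, 40.7 and 8.65 FPKM in *Ldha*-null tumors and 46.4, 21.9, 96.6, 102 and 27.0 FPKM in wild-type tumors. *Cxcl3* was highest in *Ldha*-null tumor 3 (27.8 FPKM) and next in wild-type tumor 5 (14.5 FPKM), with 1.15 to 7.34 FPKM in the other 8. *Ppbp*, whose product is cut in platelets to a neutrophil attractant, had the same highest tumors, at 11.6 and 6.42 FPKM, against at most 1.51 FPKM elsewhere. *Cxcl5*, made by epithelial cells, ranged instead from 0.556 FPKM in *Ldha*-null tumor 1 to 71.1 FPKM in wild-type tumor 3. *Cxcl15* stayed under 1 FPKM in every tumor. The cytokine gene *Il1b*, named here after its values were seen, was also highest in *Ldha*-null tumor 3, at 215 FPKM against 12.4 to 67.0 FPKM in the others. The neutrophil marker *Ly6g* was near 0 throughout (at most 0.544 FPKM), and the 8 neutrophil markers summed to 17.5 to 83.6 FPKM. Although *Ldha*-null tumor 3 had the top sum, wild-type tumor 3 came close to it, with 81.1 FPKM. By mean log2 CPM of the neutrophil list, wild-type tumor 3 was instead the highest (3.44), above *Ldha*-null tumor 3 (3.33).

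The interferon-induced *Cxcl9* and *Cxcl10* (chr5:92321331-92348889) had the widest spans of the tested members that had counts in every tumor. *Cxcl9* stood at 2.31, 5.88, 1.17, 34.3 and 86.1 FPKM in *Ldha*-null tumors and, with wild type, at 0.240, 87.0, 116, 9.9997 and 0.138 FPKM, a span of 845-fold. *Cxcl10* stood at 2.36, 39.0, 8.74, 19.2 and 101 FPKM in *Ldha*-null tumors and, with wild type, at 1.07, 25.7, 55.4, 6.39 and 0.283 FPKM, a span of 356-fold. *Ldha*-null tumor 5 and wild-type tumors 2 and 3 were the highest for *Cxcl9*, and *Ldha*-null tumor 5 and wild-type tumor 3 for *Cxcl10*. Wild-type tumors 1 and 5 were the lowest for both.

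Of the remaining CXC members, *Cxcl16*, a membrane-bound ligand of *Cxcr6*, ranged from 4.04 FPKM in *Ldha*-null tumor 1 to 79.6 FPKM in *Ldha*-null tumor 5, and *Cxcl12*, the stromal ligand of *Cxcr4*, from 8.95 to 128 FPKM in the same tumors. *Cxcl14*, an epithelial and stromal chemokine, stood at 16.7, 45.3, 19.1, 106 and 95.7 FPKM in *Ldha*-null tumors and, with wild type, at 98.2, 4.97, 17.1, 21.5 and 91.9 FPKM. It was high both in wild-type tumor 5, rich in keratinocyte markers, and in wild-type tumor 1, which had the fewest. *Cxcl13*, which draws B cells, reached 50.7 FPKM in wild-type tumor 2 and 1.08 to 17.5 FPKM in the others. The B cell markers were low, summing to 0.700 to 9.91 FPKM, and were also highest in wild-type tumor 2.

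Among CC members of lymphoid tissue, type 2 responses and epithelium, *Ccl21a*, a *Ccr7* ligand of lymphatic endothelium, ranged from 8.72 FPKM in *Ldha*-null tumor 1 to 133 FPKM in *Ldha*-null tumor 5. *Ccl17*, a *Ccr4* ligand of dendritic cells, ranged from 0.112 FPKM in *Ldha*-null tumor 1 to 36.1 FPKM in wild-type tumor 2, and *Ccl22*, which binds the same receptor, from 0.788 to 11.5 FPKM. The eotaxins *Ccl11* and *Ccl24* were low, with *Ccl11* reaching 10.7 FPKM in *Ldha*-null tumor 1 but only 1.91 to 4.30 FPKM elsewhere, and *Ccl24* at 0 to 3.91 FPKM. Eosinophil markers summed to at most 1.91 FPKM in any tumor. *Ccl27a*, a skin chemokine that draws T cells through *Ccr10*, ranged from 6.74 FPKM in *Ldha*-null tumor 3 to 42.7 FPKM in *Ldha*-null tumor 1. *Ccl25*, a ligand of *Ccr9*, had the narrowest span of the tested members, 2.59 to 10.002 FPKM, and *Ccl20*, a ligand of *Ccr6*, ranged from 0.0583 to 3.68 FPKM. *Cx3cl1*, a membrane-bound chemokine, was highest in wild-type tumor 5 at 37.1 FPKM and ranged from 1.69 to 17.03 FPKM in the others. *Xcl1*, from NK and CD8 T cells, was at 0 in *Ldha*-null tumor 1 and at most 7.53 FPKM.

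Chemokine ligands varied more between tumors than most genes did. The SD of log2 CPM (counts scaled to library size, with TMM factors) over the 10 tumors had a median of 1.53 for the 30 members that passed the expression filter (*Xcl1* and the 8 members under 1 FPKM did not) and of 0.64 for all 15176 genes that passed. Over the 7 tumors rich in macrophage markers these medians were 0.93 and 0.41. The lowest value among the 10 tumors fell in *Ldha*-null tumor 1 for 16 of these 30 members.

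To ask whether loss of *Ldha* changed the family, the genotypes were compared by edgeR's quasi-likelihood test over all genes. None of the 30 tested chemokine ligands passed at an adjusted p under 0.05, and 0 of 15176 genes (0%) did, the smallest adjusted p being 0.999. DESeq2 called 0 members as well, and 3 other genes. At an unadjusted p under 0.05, 3 members were higher in *Ldha*-null tumors, where 541 of all genes (3.56%) were, and 0 members were lower, where 60 genes (0.395%) were. Both directions together, 601 genes had such a p. Without *Ldha*-null tumor 1, rich in muscle transcripts, 194 of 15510 genes did, against 385 to 1090 without any other single tumor. Of the 30, 13 had a log2 fold change above 0 and 17 below it (*Ldha*-null over wild type), with a median of -0.20 against 0.02 for all genes tested. No member had groups that did not overlap, against 28 genes (0.185%) of all.

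**Figure D3:**
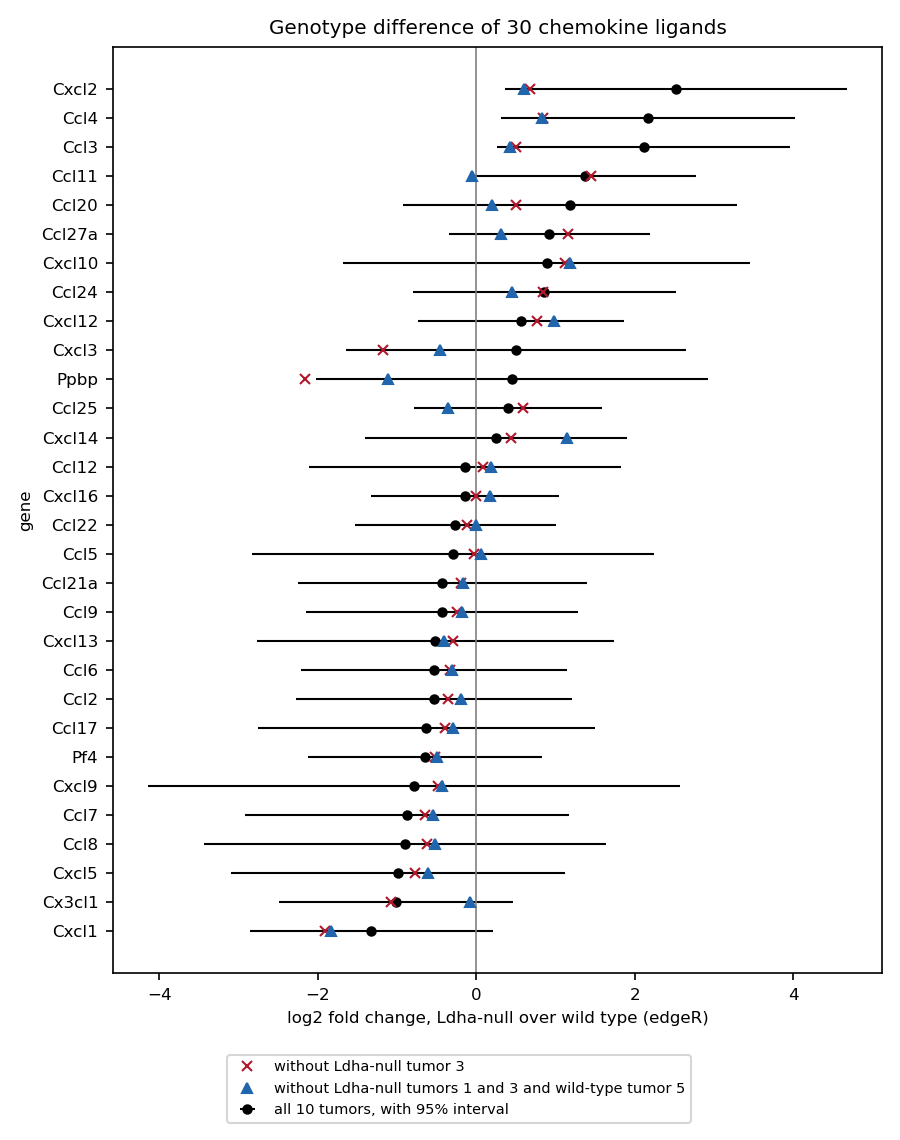
Log2 fold change (*Ldha*-null over wild type) of the 30 tested chemokine ligands from edgeR, with 95% intervals (black), and the values without *Ldha*-null tumor 3 (red crosses) or without wild-type tumor 5 and *Ldha*-null tumors 1 and 3 (blue triangles). The values of *Cxcl2*, *Ccl4* and *Ccl3* lie at 2.52, 2.17 and 2.11 with all tumors and at 0.68, 0.84 and 0.50 without *Ldha*-null tumor 3.

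The 3 members were *Cxcl2*, *Ccl4* and *Ccl3*, and their difference rested on *Ldha*-null tumor 3. *Cxcl2* averaged 55.5 ± 39.7 FPKM in *Ldha*-null tumors, against 11.4 ± 2.22 FPKM with wild type (log2 fold change 2.52, SE 0.98, edgeR adjusted p = 0.999). *Ccl4* averaged 17.7 ± 10.01 and 4.53 ± 1.48 FPKM (log2 fold change 2.17, SE 0.84), and *Ccl3* 18.8 ± 12.1 and 5.10 ± 1.28 FPKM (2.11, SE 0.84). Without *Ldha*-null tumor 3 the log2 fold changes were 0.68, 0.84 and 0.50, and none of the 3 had an unadjusted p under 0.05. That p was also 0.05 or more for *Ccl3* and *Ccl4* without wild-type tumor 1, 4 or 5, and for *Cxcl2* without wild-type tumor 2 or 3. By the exact permutation test of log2 CPM over all assignments of 5 tumors of 10, two-sided, p was 0.2698 for *Cxcl2*, 0.0794 for *Ccl4* and 0.0952 for *Ccl3*, where the smallest p possible is 0.00794. That test gave 0 of the 30 members a p under 0.05.

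**Figure D4:**
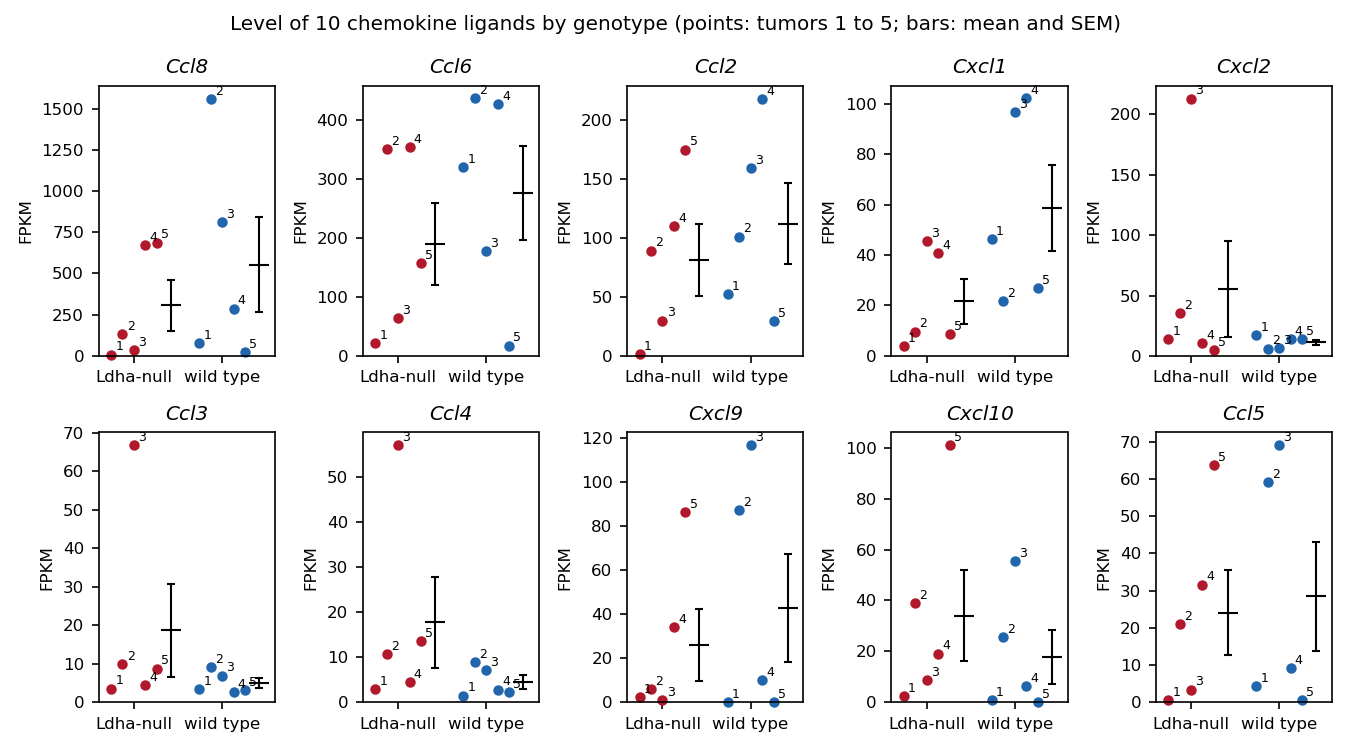
Level in FPKM of 10 chemokine ligands in *Ldha*-null (red) and wild-type (blue) tumors, with each tumor as a numbered point and the mean and SEM of 5 tumors as bars. The points overlap between genotypes for each gene, and *Ldha*-null tumor 3 stands far above the rest for *Cxcl2* (213 FPKM), *Ccl3* (66.9 FPKM) and *Ccl4* (57.0 FPKM).

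The largest negative difference was that of *Cxcl1*, which averaged 21.6 ± 8.83 FPKM in *Ldha*-null tumors, against 58.8 ± 17.1 FPKM with wild type (log2 fold change -1.32, SE 0.69, unadjusted edgeR p = 0.0831, exact permutation p = 0.0794). Its log2 fold change ranged from -1.98 to -1.01 over 16 alternatives. Of its tumors, 3 *Ldha*-null tumors (1, 2 and 5) lay below the lowest wild-type tumor, while 2 lay within the wild-type range. *Ccl11* averaged 4.59 ± 1.57 and 2.47 ± 0.329 FPKM (log2 fold change 1.38, SE 0.63), and without *Ldha*-null tumor 1 its log2 fold change was 0.35. *Ccl8* averaged 307 ± 153 and 552 ± 288 FPKM, with a log2 fold change of -0.90 and a 95% interval from -3.43 to 1.64, and without wild-type tumor 2 its log2 fold change was -0.0468. All 4 monocyte attractants had negative values (median -0.70), with none passing the test and a change of sign under some alternatives for *Ccl12*. Without wild-type tumor 4, *Ccl2* went from -0.53 to -0.12 and *Ccl7* from -0.87 to -0.14. The 3 tested members grouped by role as epithelial CC ligands had positive values, none passing the test, at 1.18 for *Ccl20*, 0.92 for *Ccl27a* and 0.40 for *Ccl25*. Without *Ldha*-null tumor 1, the tumor rich in muscle transcripts, these were 1.26, 0.12 and -0.34. The grouping did not follow keratinocyte RNA for all 3. *Ccl27a* and *Ccl25* were lowest in *Ldha*-null tumor 3, which had the highest sum of keratinocyte markers, while *Ccl20* was highest there. The intervals of these members are wide: for *Cxcl9* it ran from -4.14 to 2.57, for *Cxcl10* from -1.68 to 3.46 and for *Ccl5* from -2.83 to 2.24, so a difference of several fold in either direction was not detectable with these 5 and 5 tumors.

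The receptors were compared in the same fit. Of 18 chemokine receptors, 13 were tested and 0 passed, with a median log2 fold change of -0.06, and of 5 atypical receptors, which take up ligands without the usual signaling, all were tested and 0 passed. *Cx3cr1*, the receptor of *Cx3cl1*, averaged 29.7 ± 10.5 FPKM in *Ldha*-null tumors, against 35.0 ± 11.6 FPKM with wild type, and *Ccr1* 20.6 ± 6.79 and 23.5 ± 5.82 FPKM. *Ccr2*, the receptor of monocyte attractants, averaged 13.8 ± 5.23 and 13.5 ± 3.94 FPKM, and *Cxcr4* 9.92 ± 2.16 and 8.66 ± 0.860 FPKM. *Ccr7*, *Cxcr2*, *Cxcr3* and *Cxcr6* had means over all tumors of 1.33 to 2.77 FPKM. The receptor of *Ccl17* and *Ccl22*, *Ccr4*, stayed at or below 0.283 FPKM. Of the atypical receptors, *Ackr3*, which binds *Cxcl12*, averaged 23.2 ± 7.90 and 28.9 ± 6.89 FPKM, and *Ackr1* and *Ackr4* had means of 1.87 and 1.20 FPKM. *Ccrl2*, which binds chemerin, stood at 3.79, 3.87, 3.81, 2.03 and 2.99 FPKM in *Ldha*-null tumors and, with wild type, at 1.49, 1.97, 2.81, 1.82 and 0.632 FPKM (log2 fold change 1.20, SE 0.45, edgeR adjusted p = 0.999).

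Lists of genes around the family gave 0 called genes in each of 22 lists, which held 159 genes, 135 of them tested. At an unadjusted edgeR p under 0.05, 541 of all 15176 genes (3.56%) were higher in *Ldha*-null tumors and 60 (0.395%) lower. Among the 135 list genes, 15 had such a p. Of these 15, 7 were skeletal muscle genes and 2 adipocyte genes, highest in *Ldha*-null tumor 1 with its muscle and fat transcripts (*Ckm*, at 5646 FPKM there, and *Adipoq*, at 107 FPKM), and 2 were the keratins *Krt1* and *Krt10*, highest in *Ldha*-null tumor 3. The others were *Il1b*, *Ccrl2*, the B cell gene *Cd79a* and the endothelial gene *Pecam1*. The median log2 fold change was -0.15 for 12 genes of the NF-kB response, 0.14 for 11 of the interferon response, 0.42 for 5 of the interleukin 17 response, -0.25 for 6 of the type 2 response, -0.16 for 9 macrophage markers and -0.06 for 8 T cell markers.

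To see which ligands were high in the same tumors, correlations of log2 CPM were taken over the 7 tumors other than wild-type tumor 5 and *Ldha*-null tumors 1 and 3, since tumors that fall into separate clusters would give a pooled correlation that only separates the clusters. Of 435 pairs, 0 (0%) passed at an adjusted p under 0.05 by the exact permutation test over all pairings of the tumors (smallest adjusted p = 0.111). The median r was -0.05, against 0.00 for all pairs of tested genes. An r of at least 0.9 was reached by 12 pairs (2.76%), against 0.595% of all 115147900 pairs of tested genes. Values across pairs share tumors, and the tumors also differ in their cell content, so pairs are not independent of one another.

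**Figure D5:**
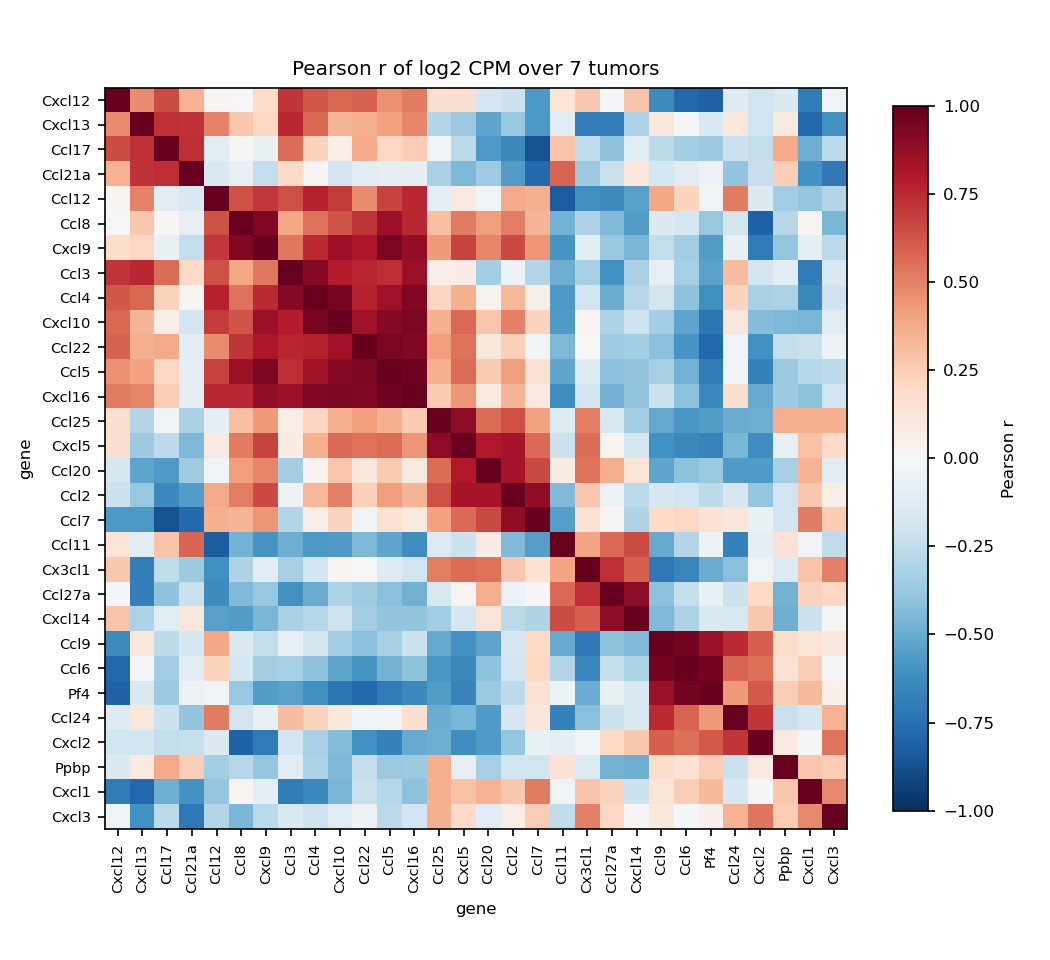
Pearson r of log2 CPM over 7 tumors for each pair of the 30 tested chemokine ligands, with genes ordered by average linkage on 1 - r. Red marks pairs that were high in the same tumors, as *Ccl5* and *Cxcl16* (r = 0.973), and blue pairs that ran opposite, as *Ccl17* and *Ccl7* (r = -0.871).

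The highest r was that of *Ccl5* with *Cxcl16* (r = 0.973, rho = 0.964, exact permutation p = 0.00139 and 0.00278), followed by *Ccl6* with *Pf4* (r = 0.959, rho = 0.786), *Ccl6* with *Ccl9* (r = 0.956, rho = 0.893), *Ccl4* with *Cxcl10* (r = 0.952, rho = 0.893) and *Ccl5* with *Cxcl9* (r = 0.944, rho = 0.964). After leaving out the 2 tumors farthest from the median of the first gene, r was 0.842, 0.557, 0.761, 0.727 and 0.968 in the same order. In the plot of correlations, *Ccl3*, *Ccl4*, *Ccl5*, *Ccl22*, *Cxcl9*, *Cxcl10* and *Cxcl16* stand together, with r of 0.526 to 0.973 over their 21 pairs, and *Ccl6*, *Ccl9* and *Pf4* form another set, with r of 0.865 to 0.959. Between these sets r ran from -0.781 to -0.0857. The sets were drawn from the same correlations and are a description. The lowest values were those of *Ccl17* with *Ccl7* (r = -0.871, rho = -0.857), *Ccl11* with *Ccl12* (r = -0.829, rho = -0.643) and *Cxcl12* with *Pf4* (r = -0.811, rho = -0.679), which became -0.649, -0.487 and -0.484 without the 2 farthest tumors.

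Pairs that share a receptor or a place in the genome did not all have a high r. *Ccl3* and *Ccl4*, neighbors on chromosome 11, had r = 0.907 (rho = 0.857, 0.879 without the 2 farthest tumors). *Cxcl9* and *Cxcl10*, both interferon-induced, had r = 0.852 (rho = 0.643, 0.247 without the 2 tumors farthest from the median of *Cxcl10*). Their r ran from 0.506 to 0.948 with single tumors left out and was 0.883 over all 10 tumors. Leaving out the farthest tumors narrows the range and can lower r by itself. *Ccl2* and *Ccl7* had r = 0.885 (rho = 0.821, 0.407 without the 2 farthest tumors), whereas *Ccl7* and *Ccl8* had r = 0.344 (rho = 0.179). *Cxcl1* and *Cxcl2*, with the same motif in their promoters, had r = -0.02 (rho = 0.286), *Cxcl2* and *Cxcl3* r = 0.539 (rho = 0.571) and *Cxcl1* and *Cxcl5* r = 0.293 (rho = 0.179). *Ccl17* and *Ccl22*, ligands of *Ccr4*, had r = 0.377 (rho = 0.464), *Pf4* and *Ppbp*, both stored in platelets, r = 0.249 (rho = 0.714), and *Cxcl12* and *Cxcl14* r = 0.284 (rho = 0.0357). None of these pairs had an adjusted permutation p under 0.05. Pairs within 1 Mb of each other (39 pairs) had a median r of 0.249 and pairs farther apart (396 pairs) one of -0.07.

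Over the same 7 tumors, 19 pairs of a ligand and its receptor had a median r of 0.538, against 0.00 for all pairs of tested genes. These pairs were chosen after the values were seen, and p was adjusted over these 19 alone. The share passing was not computed for other gene pairs, so the number passing has no background beside it. An adjusted p under 0.05 was reached by 4 of them (21.1%), each with an adjusted exact permutation p of 0.0264. The 3 given here were *Cxcl5* with *Cxcr2* (r = 0.939, rho = 0.929), *Cxcl16* with *Cxcr6* (r = 0.894, rho = 0.679) and *Cxcl9* with *Cxcr3* (r = 0.889, rho = 0.857). Without the 2 tumors farthest from the ligand's median, r was 0.889, 0.521 and 0.751. By Spearman's rho 0 of 19 passed, with a smallest adjusted p of 0.0641, and 0 passed when *Ldha*-null tumor 2, 4 or 5 or wild-type tumor 1 or 2 was left out, while 3 passed without wild-type tumor 3 or 4. With *Cxcr2*, *Cxcl1* had r = 0.0462 and *Cxcl2* r = -0.723, and with *Ccr2*, *Ccl2* had r = -0.353 and *Ccl7* r = -0.495, none of which passed the test.

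The ligands were set beside the mean log2 CPM of 7 marker lists, in 210 relations over the 7 tumors, of which 0 had an adjusted p under 0.05 (smallest 0.0583 by exact permutation). The highest values were those of *Cxcl16* and *Ccl5* with the interferon response list (r = 0.982 and 0.978, rho = 0.929 and 0.964) and of *Cxcl9* and *Ccl5* with the T cell list (r = 0.972 and 0.970, rho = 0.857 and 0.893). Without the 2 tumors farthest from the ligand's median, r was 0.771, 0.872, 0.931 and 0.905 in the same order. *Ccl8* had a high r with the T cell list (r = 0.927, rho = 0.857, adjusted p = 0.0833), as had *Cxcl5* with the neutrophil list (r = 0.910, rho = 0.857, adjusted p = 0.109). These became 0.855 and 0.823 without the 2 farthest tumors. *Ccl5*, *Cxcl16* and *Ccl4* had an r of 0.904, 0.937 and 0.949 with the keratinocyte list as well (rho = 0.714, 0.786 and 0.893). Without the 2 farthest tumors r was 0.474, 0.637 and 0.742. Keratinocyte markers were at a sum of 243 to 3618 FPKM in these 7 tumors. Wild-type tumor 1 was the lowest of the 7 on the T cell, interferon response and keratinocyte lists alike. With the macrophage list, r over the 7 tumors was -0.216 for *Ccl2*, -0.085 for *Ccl7*, 0.0254 for *Ccl8* and 0.687 for *Ccl12*. It was 0.451 for *Ccl6*, 0.677 for *Ccl9* and 0.255 for *Pf4*. The highest r with that list was that of *Ccl24* (r = 0.854, rho = 0.929, 0.525 without the 2 farthest tumors). The part that each cell type has in these levels was not tested.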

How the data were processed

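RNA was taken from whole fresh tumors, selected for poly(A) with oligo(dT) beads, and read on an Illumina HiSeq2500. The submitters' processing notes name CASAVA 1.8, TopHat2 and mm10, and the study names HTSeq in union mode. Counts were deposited by the authors as whole numbers per gene, and FPKM values were computed by the authors from them and a gene length. Versions of TopHat2 and HTSeq and the annotation release are not given.

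Tumors were grouped by their titles, at 12969508 to 17694201 counts each. Of 35275 genes, 15176 passed filterByExpr (minimum count 10, minimum total 15) and were tested in edgeR 4.0.16 (R 4.3.3) with TMM factors and the quasi-likelihood F-test. P-values were adjusted by Benjamini-Hochberg over all genes tested, with a threshold of 0.05 and 95% intervals. The biological coefficient of variation was 63.4%. Each member was also tested alone on log2 CPM (prior count 2) by exact permutation. Correlations used exact permutation over 7 tumors and 100000 resamples over 10. Tumors are described as separate mice, so p-values measure the spread between these tumors, and no libraries agreed within sampling noise. The scripts were tested on simulated data.

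Named were members with a mean of at least 1 FPKM or among the 3 highest of any tumor, receptors with a mean of at least 1 FPKM (some values are not reported here), up to 3 genes of smallest p in each other list, the 5 highest and 3 lowest pairs by r and a fixed set of pairs. The members, lists and tests were chosen with earlier results of these data known, and the relations with receptors and marker lists were added after seeing the values. Alternatives were DESeq2 1.42.0, RLE factors, no filter, a stricter one (mean CPM from 5), limma-voom, limma 3.58.1 on log2(FPKM + 0.1), a replicate block and leaving out tumors.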

Additional observations from a re-analysis of the deposited data

Results flagged for a closer look

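Within each genotype of 5 tumors, the highest or lowest log2 CPM of a member was examined for its distance from the nearest other tumor, over 60 groups (30 members in 2 genotypes), and 6 stood apart by Dixon's criterion, which takes about 1 in 20 groups by chance. The value given is the gap to the nearest tumor divided by the range of the group, with a critical value of 0.71. In *Ldha*-null tumors, tumor 3 was far above the others for *Ccl3* (0.724) and *Ppbp* (0.782). In wild-type tumors, tumor 5 was far above the others for *Ppbp* (0.819) and far below them for *Ccl9* (0.751) and *Ccl24* (0.889, with 0 counts), and tumor 1 was far above the others for *Ccl11* (0.83). Tumor 3 of the *Ldha*-null group and tumor 5 of the wild-type group were the libraries richest in keratinocyte markers, at 36522 and 36393 FPKM summed, and the part of this in the 6 values was not tested.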

How the results depend on the processing

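Among all genes, 0 passed in every alternative tried but DESeq2, where 3 did, and 0 members and 0 genes of the lists passed in any. Genes at an unadjusted p under 0.05 numbered 601 of 15176, with 120 under the replicate block, 138 by limma on FPKM and 1308 of 25260 with no filter. On log2(FPKM + 0.1) the median log2 fold change of all genes was -0.14, against 0.02. Under limma-voom 17 members were positive and 13 negative. Of 30 members, those with an unadjusted p under 0.05 numbered 0 by permutation, 3 by edgeR and 3 with RLE factors. They numbered 1 by limma on FPKM, 3 by limma-voom and 2 with the replicate block (*Ccl4* and *Cxcl1*). DESeq2 gave 4 among the 37 members it fitted, with *Ccl19*, which the main fit did not test, and gave no p for *Ccl3* and *Ppbp*. With 31 to 33 members fitted, the number was 1 when the 3 tumors set apart were dropped (*Cxcl1*) and 1 to 5 when single tumors were left out. Same-numbered tumors did not all deviate together (correlations of -0.511 to 0.551). These 5 correlations cannot settle whether the numbers pair the tumors, since tissue content also differs between tumors. The replicate block added no call.

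Of 30 members, 17 had a log2 fold change of 1 sign in all 16 alternatives. For the others the sign changed, and the cause was not tested. Their values follow by alternative. Under limma-voom they were 0.17 for *Ccl12*, 0.27 for *Ccl21a*, 0.12 for *Cxcl16*, 1.24 for *Cxcl9*, 0.92 for *Ccl5*, 1.03 for *Cxcl13*, -0.45 for *Cxcl3*, -0.25 for *Ccl25*, 0.30 for *Ccl22* and -0.89 for *Ppbp*. With limma on log2(FPKM + 0.1) they were 0.54 for *Cxcl9*, 0.47 for *Cxcl13*, -0.26 for *Cxcl3*, -0.0383 for *Ccl25* and -0.79 for *Ppbp*. With the replicate block they were 1.10 for *Cxcl9*, 0.58 for *Cxcl13* and -1.04 for *Ppbp*. When the 3 tumors set apart were dropped they were 0.19 for *Ccl12*, 0.18 for *Cxcl16*, 0.0636 for *Ccl5*, -0.46 for *Cxcl3*, -0.36 for *Ccl25*, -0.0528 for *Ccl11* and -1.11 for *Ppbp*. With single tumors left out they ran from -0.44 to 0.22 for *Ccl12*, -0.0734 to 0.69 for *Cxcl14*, -1.33 to 0.0871 for *Ccl21a*, -0.35 to 0.13 for *Cxcl16*, -1.91 to 0.0368 for *Cxcl9*, -0.98 to 0.35 for *Ccl5*, -2.12 to 0.0466 for *Cxcl5*, -0.88 to 1.64 for *Cxcl13*, -1.18 to 1.26 for *Cxcl3*, -0.34 to 0.62 for *Ccl25*, -0.52 to 0.22 for *Ccl22* and -2.16 to 1.52 for *Ppbp*.

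Of 435 pairs of members, 29 passed over all 10 tumors, against 0 over 7. Of 19 ligand and receptor pairs, 4 passed over 7 tumors, 8 over all 10, 0 by Spearman rho and 0 to 3 with a tumor left out. Of 210 relations with marker lists, 25 passed over all 10 tumors and 0 over 7. Some correlations changed sign. Over all 10 tumors they were 0.792 for *Ccl17* with *Ccl7*, 0.071 for *Cxcl12* with *Pf4*, 0.0825 for *Cxcl1* with *Cxcl2* and -0.349 for *Pf4* with *Ppbp*. As Spearman rho they were 0.286 for *Cxcl1* with *Cxcl2*. On deviations from the genotype means they were 0.114 for *Cxcl1* with *Cxcl2*, -0.0444 for *Pf4* with *Ppbp* and -0.0331 for *Cxcl12* with *Cxcl14*. With single tumors left out they ran from -0.478 to 0.615 for *Cxcl1* with *Cxcl2*, -0.0535 to 0.715 for *Cxcl1* with *Cxcl5*, -0.194 to 0.696 for *Ccl7* with *Ccl8* and -0.157 to 0.787 for *Ccl17* with *Ccl22*.

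With 5 tumors a genotype and a coefficient of variation of 63.4% over the whole fit, the intervals were wide. Total counts of the tested members over the 10 tumors ran from 183 for *Ccl20* to 33618 for *Ccl6*. The parts of the spread between tumors and of low counts in the width of the intervals were not tested. The correlations rest on 7 tumors.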
